A study of Mus musculus with 6 samples.

Results

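The Ikaros family of transcription factors comprises Ikzf1 (Ikaros), Ikzf2 (Helios), Ikzf3 (Aiolos), Ikzf4 (Eos) and Ikzf5 (Pegasus). These 5 genes were taken by name from the 22180 genes that the arrays measured with a probe set carrying a single gene symbol, and all 5 were found, each with 1 such probe set. Their transcripts were examined in common lymphoid progenitors (CLPs) that lack the surface protein Ly6D, which are early bone marrow cells able to form T, B and natural killer cells. The cells were sorted by flow cytometry as low for lineage markers, positive for Kit, Sca and CD127, and negative for Thy1.2 and Ly6D. Mutant mice were OcnCre+;iDTR+/-, in which osteocalcin-expressing bone cells make Cre recombinase and, through it, a receptor for diphtheria toxin, and control mice were OcnCre-;iDTR+/-. Mice of both groups carried iDTR, were 6 to 8 weeks old and received toxin daily for 4 weeks, so the groups differed by Cre alone as labelled. Each group had 3 samples, with 1 Affymetrix array per sample. GEO's tissue field names stromal cells of the bone marrow, whereas the other labels name CLPs. The labels do not say whether a sample was 1 mouse or a pool, and the p-values therefore reflect the scatter among these samples alone, which may be technical.

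Ikaros family proteins are zinc finger factors. Fingers near the start of the protein bind DNA, and a pair near its end joins family members to each other, so the proteins act as dimers of the same or of different members. They repress or activate genes largely by recruiting chromatin complexes such as NuRD. Ikaros is needed for the earliest steps of lymphoid development, Aiolos accumulates as B lineage cells mature, Helios and Eos are best known from regulatory T cells, and Pegasus is the most divergent and broadly expressed member. The comparison addresses what these progenitors transcribe when osteocalcin-expressing cells are depleted. The arrays give 1 value per gene here and do not separate the DNA-binding from the short, dominant-negative isoforms of Ikaros.

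RefSeq (GRCm38.p6) promoter windows were at hand for 2 members, Ikzf1 with 2 starts and Ikzf5. They are shown because the gene with the lowest p in the family has starts of unlike sequence that its single probe set cannot tell apart, while Ikzf5 is the member whose group means lay closest among those tested. Each sequence is the 250 bases before a start, 5′ to 3′ on the gene's strand, and capitals mark GGGAA, the core that Ikaros proteins bind, or its reverse complement TTCCC.
Ikzf1, upstream start, chr11:11685675-11685924, plus strand: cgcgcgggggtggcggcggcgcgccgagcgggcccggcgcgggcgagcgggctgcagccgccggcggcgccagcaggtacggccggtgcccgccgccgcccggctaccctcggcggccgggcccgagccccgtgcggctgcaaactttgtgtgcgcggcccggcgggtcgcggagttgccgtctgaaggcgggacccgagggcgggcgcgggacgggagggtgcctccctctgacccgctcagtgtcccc
Ikzf1, downstream start, chr11:11689927-11690176, plus strand: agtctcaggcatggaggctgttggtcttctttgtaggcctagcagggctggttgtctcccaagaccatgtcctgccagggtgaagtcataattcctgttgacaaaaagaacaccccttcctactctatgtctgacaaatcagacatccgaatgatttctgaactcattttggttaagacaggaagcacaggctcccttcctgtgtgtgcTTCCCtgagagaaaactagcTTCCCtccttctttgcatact
Ikzf5, chr7:131410479-131410728, minus strand: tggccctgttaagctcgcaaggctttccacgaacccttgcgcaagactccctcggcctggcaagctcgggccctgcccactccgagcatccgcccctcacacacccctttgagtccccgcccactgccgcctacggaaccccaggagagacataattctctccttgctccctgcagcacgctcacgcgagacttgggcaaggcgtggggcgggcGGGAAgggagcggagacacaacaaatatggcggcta

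The Ikzf1 starts lie 4252 bases apart. The window of the upstream start is 82.0% G or C with 44 CpG dinucleotides and holds no match to the core on either strand. That of the downstream start is 47.6% G or C with 1 CpG and holds 2 matches, both on the opposite strand. The Ikzf5 window, 64.0% G or C with 18 CpG dinucleotides, holds 1 match. Of 32851 promoter windows of the same length, 56.2% held at least 1 match, so a match in such a window is common, and it is not evidence of binding.

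Ikzf1 was lower on every mutant array than on any control array. Values are log2 intensities, and arrays of a group are listed as replicates 1, 2 and 3. The control arrays read 8.86, 9.14 and 9.10, and the mutant arrays read 8.67, 8.48 and 8.60. The groups were separated by 0.19, less than the range of 0.28 within the controls. The means were 9.03 ± 0.15 and 8.59 ± 0.10 (SD, n = 3 each), and the mutant minus control difference was -0.45 ± 0.13 (SE), which corresponds to an intensity 0.73 times that of controls (95% interval 0.60 to 0.90). In limma, with p-values adjusted over all tested genes by the Benjamini-Hochberg method, this did not pass the threshold of 0.05 (adjusted p = 0.594; unadjusted p = 0.0079).

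Ikzf3 showed the family's largest difference. Its control arrays read 6.39, 7.10 and 7.13, and its mutant arrays 6.33, 5.95 and 6.23. The groups again did not overlap, but control replicate 1 lay only 0.06 above mutant replicate 1 and 0.72 below the next control. The means were 6.87 ± 0.42 and 6.17 ± 0.19 (SD, n = 3 each). The difference was -0.70 ± 0.22 (SE), or 0.61 times the control intensity (95% interval 0.43 to 0.87), and it did not pass in limma either (adjusted p = 0.594; unadjusted p = 0.012).

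**Figure D1:**
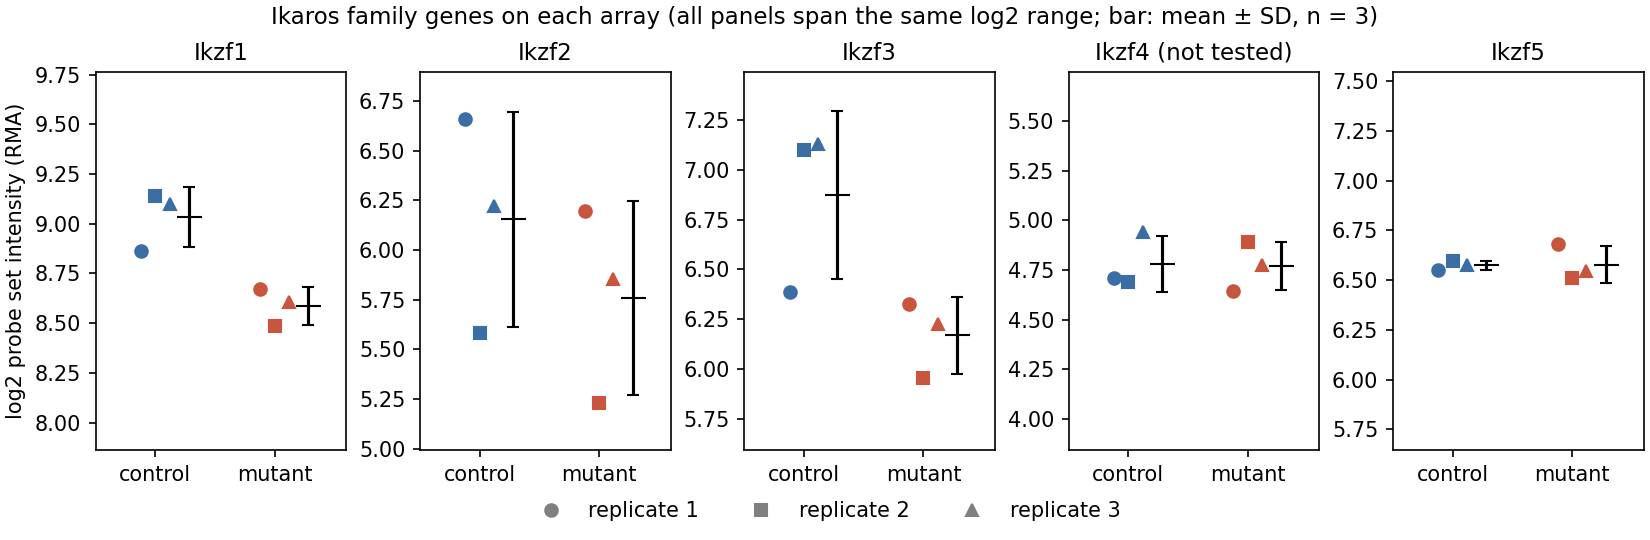
Log2 probe set intensity of each Ikaros family gene on each array, with control arrays in blue and mutant arrays in red, a symbol per replicate number, and the mean ± SD of 3 arrays beside them. The groups are apart for Ikzf1 and Ikzf3 and overlap for Ikzf2, Ikzf4 and Ikzf5; control replicate 1 sits at 6.39 for Ikzf3, next to mutant replicate 1 at 6.33.

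Ikzf2 varied more among arrays of 1 group than between the groups. It was at 6.66, 5.58 and 6.22 in the controls and at 6.19, 5.23 and 5.85 in the mutants, in replicate order. Control replicate 2 was below mutant replicates 1 and 3, so the groups overlapped. The means were 6.15 ± 0.54 and 5.76 ± 0.49 (SD, n = 3 each), with a difference of -0.39 ± 0.32 (SE) and a 95% interval of -1.13 to 0.34 (adjusted p = 0.651 in limma). This difference was -0.14 without control replicate 1, -0.68 without control replicate 2, -0.61 without mutant replicate 1 and -0.13 without mutant replicate 2. In both groups replicate 1 was highest and replicate 2 lowest. With replicate number as a block in limma, the SE was 0.14 (unadjusted p = 0.022, adjusted p = 0.597).

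Ikzf4, the gene of Eos, gave a weak signal. Averaged over the 6 arrays it stood at 4.78, below the level of 4.84 under which the dimmest 40% of genes were not tested. It was at 4.71, 4.69 and 4.94 in the controls and at 4.65, 4.89 and 4.77 in the mutants, and the means were 4.78 ± 0.14 and 4.77 ± 0.12 (SD, n = 3 each). Detection calls were not used here, so these levels cannot be separated from background. Foxp3, the defining factor gene of regulatory T cells, in which Helios and Eos act, was at 5.93 to 6.13 in the controls and at 5.83 to 6.28 in the mutants. Without detection calls the Foxp3 levels cannot be separated from background either, and the presence of regulatory T cells was not tested.

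Ikzf5 was the steadiest member among the controls, where it lay at 6.55, 6.60 and 6.58, and it was at 6.68, 6.51 and 6.54 in the mutants. The mutant arrays thus lay on both sides of the controls. The means were 6.57 ± 0.02 and 6.58 ± 0.09 (SD, n = 3 each), with a difference of 0.0039 ± 0.11 (SE) and a 95% interval of -0.25 to 0.26 (adjusted p = 0.990 in limma). A difference of the size seen in Ikzf1 or Ikzf3 lies outside that interval.

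Against all 13308 tested genes the family's values read as follows. At the adjusted threshold 0 of the 4 tested members passed, as did 0 genes in all (0%), while 1068 genes (8.03%) had an unadjusted p under 0.05. The unmoderated test also gave 0 genes past the adjusted threshold and 879 at an unadjusted p under 0.05. With array quality weights 2960 of the 13308 genes passed, Ikzf1 (adjusted p = 0.011) and Ikzf3 (adjusted p = 0.011) among them in limma, and 5087 had an unadjusted p under 0.05. Mutant replicate 3 weighed 5.20 there, against 0.36 and 0.21 for mutant replicates 1 and 2, so the mutant side rested mostly on 1 array. In the unweighted limma fit, genes at an unadjusted p under 0.05 numbered 343 without control replicate 2, 409 without control replicate 3, 2923 without mutant replicate 1 and 656 without mutant replicate 3. Ikzf1 and Ikzf3 were 2 of 4 members that were lower with an unadjusted p under 0.05, against 6.02% of tested genes, and 0 members were higher at that level, against 2.01%. The unadjusted p of Ikzf3 was 0.058 in the unmoderated test and 0.051 in limma without control replicate 3, and that of Ikzf1 was 0.061 in limma after cyclic loess, so 1 of 4 remained at that level in each of these settings. The same 2 were lower without overlap between the groups, against 9.99% of tested genes, and 0 members were higher without overlap, against 5.4%. By the mean alone, 3 of 4 members were lower, against 57.5% of tested genes, and 1 was higher, against 42.5%. A more negative difference than that of Ikzf3 was seen in 0.90% of tested genes, than that of Ikzf1 in 4.99% and than that of Ikzf2 in 7.35%. Earlier results of these arrays, Ikzf1 and Ikzf3 among them, were known when the family was chosen, so these counts are descriptions.

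The order of the arrays was nearly the same for Ikzf1 and Ikzf3. In both, mutant replicate 2 was lowest, followed by mutant replicate 3, mutant replicate 1 and control replicate 1, and only control replicates 2 and 3 changed places. Relative to the control mean, the mutants lay at -0.36, -0.55 and -0.43 for Ikzf1 and at -0.55, -0.92 and -0.65 for Ikzf3, in replicate order. Ikzf2 shared only its lowest array with them. Control replicate 1, the lowest control for Ikzf1 (-0.17) and Ikzf3 (-0.49), was the highest of all arrays for Ikzf2 (0.51).

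**Figure D2:**
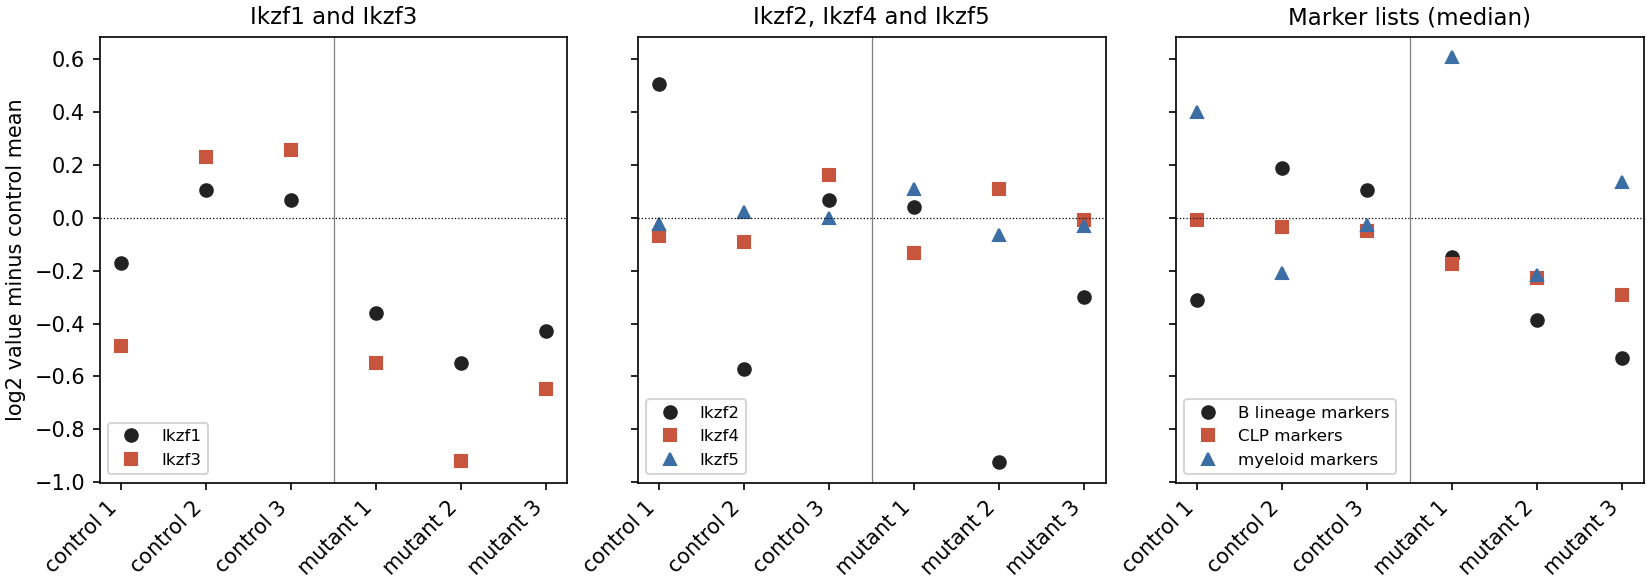
Log2 value minus the control mean on each array for Ikzf1 and Ikzf3 (left), for Ikzf2, Ikzf4 and Ikzf5 (middle) and for the median of 3 marker lists (right). Ikzf1 and Ikzf3 follow nearly the same order of arrays, and control replicate 1 is low for Ikzf3 (-0.49) and for B lineage markers (-0.31).

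Several properties of the arrays moved with these values. Mutant replicate 2 stood apart from the rest, with correlations of at most 0.954 with any other array where the other arrays reached 0.976 to 0.989. Bright genes were lower on mutant replicates 2 and 3, and in the brightest of 10 equal bins of tested genes, which holds Ikzf1, the median difference was -0.21 with an SD over genes of 0.23. Ikzf3 and Ikzf5 fall in bin 6 counted from the dim end, with a median of -0.071 (SD 0.22), and Ikzf2 in bin 5, with a median of -0.014 (SD 0.22). After cyclic loess, which removes such trends between arrays, the difference of Ikzf1 was -0.26 (unadjusted p = 0.061), that of Ikzf3 -0.64 (unadjusted p = 0.013), that of Ikzf2 -0.39 and that of Ikzf5 0.07, with adjusted p in limma from 0.723 to 0.862. The loess value of Ikzf1 was thus -0.26 against -0.45 with the deposited values, and that of Ikzf3 -0.64 against -0.70.

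**Figure D3:**
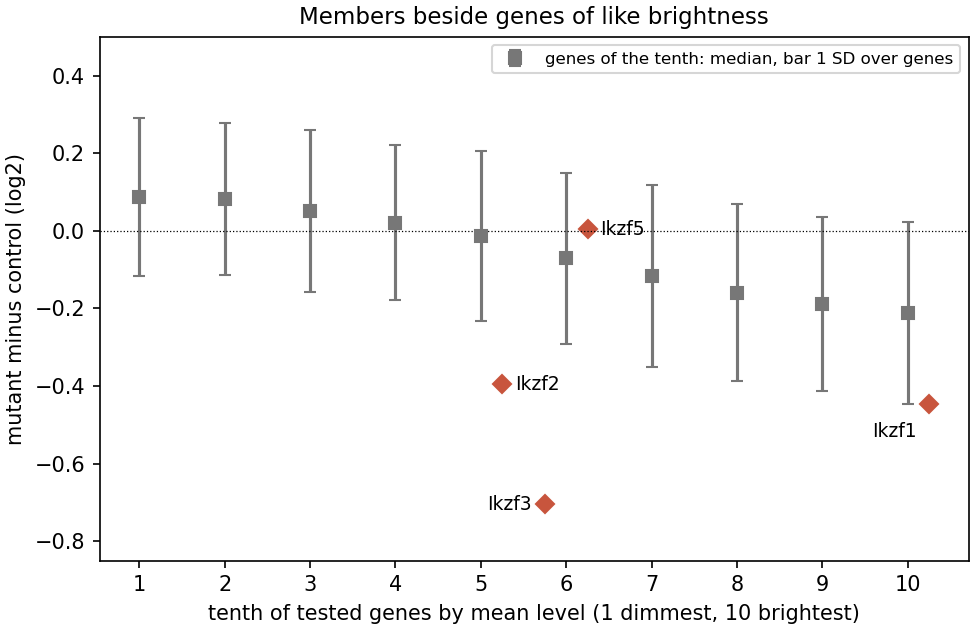
Mutant minus control difference of the 4 tested members (red) beside the median of the tested genes in each of 10 bins by mean level, with bars of 1 SD over genes. The medians run from 0.09 in the dimmest bin to -0.21 in the brightest, and Ikzf3 (-0.70) lies farthest from the median of its own bin (-0.071).

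Eif2s3y, a gene on the Y chromosome, also separated arrays, but not along the groups. It was low on control replicate 1 and mutant replicate 3 (4.88 and 4.77) and high on the other arrays (7.31 to 7.85). Among the 4 arrays with high values, the difference was -0.54 for Ikzf1, -0.98 for Ikzf3 and -0.19 for Ikzf2 (adjusted p = 0.853, 0.853 and 0.908 in limma). Between the 2 arrays with low values, 1 per group and so without a test, it was -0.26 for Ikzf1, -0.16 for Ikzf3 and -0.80 for Ikzf2. The direction was the same on both sides of this division for these 3 genes, and the sizes were not alike. For Ikzf1 and Ikzf3 the shared direction was fixed in advance, because their groups do not overlap.

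**Figure D4:**
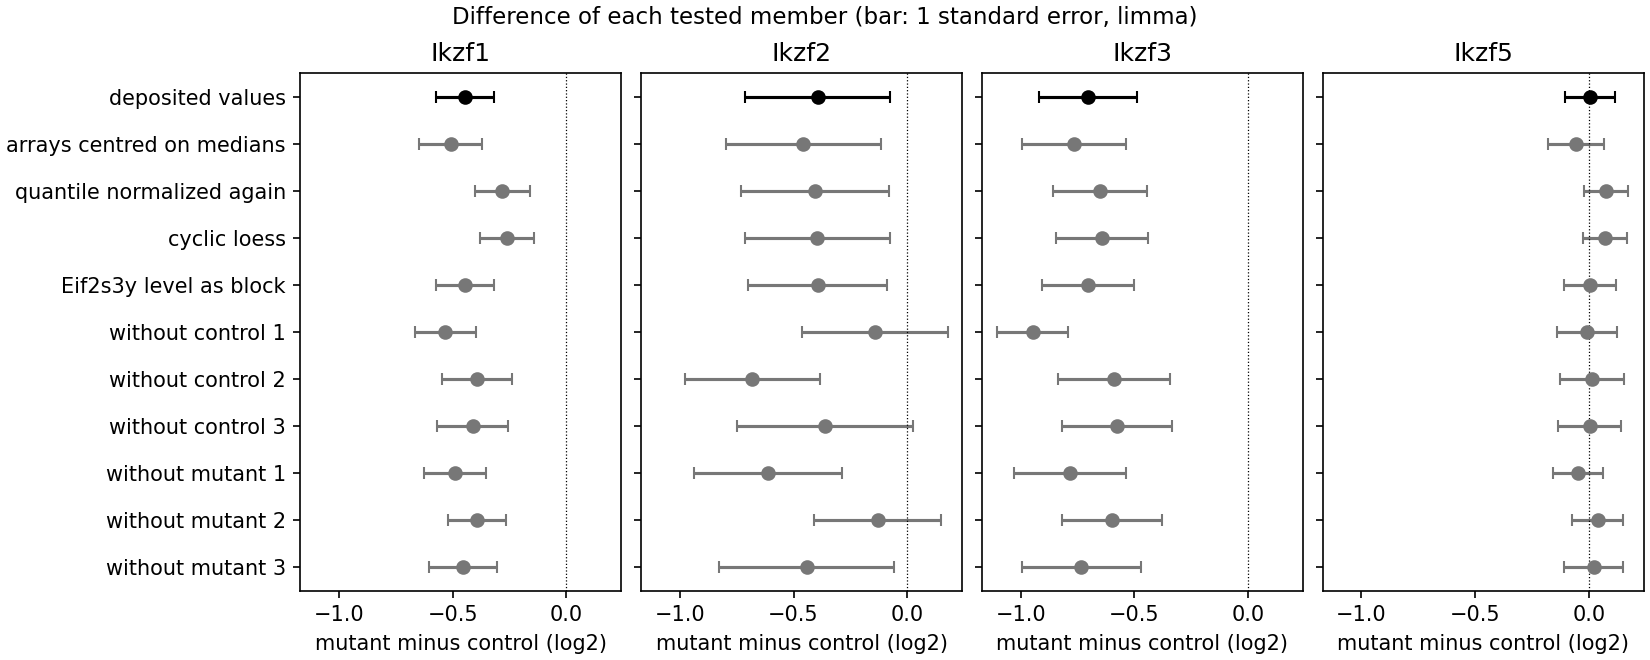
Mutant minus control difference (log2, bar 1 standard error) of the 4 tested members with the deposited values, after other scalings, with the Eif2s3y level as a block, and with each array left out in turn. Ikzf1, Ikzf2 and Ikzf3 stay below 0 in each setting plotted, Ikzf1 shrinks to -0.26 after cyclic loess, and Ikzf5 lies on both sides of 0. The balanced block could not change a difference. Leaving out an array could not turn the sign of Ikzf1 or Ikzf3, whose groups do not overlap.

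B lineage markers were lower on the mutant arrays and on control replicate 1, the array that was also low for Ikzf3. Each of the 9 markers tested, of 12 listed, was lower by its mean (median -0.27), against 57.5% of all tested genes. The 9 lie in bins 8 to 10, where 79.2% to 86.0% of tested genes were lower. The list's median relative to the control mean was -0.31, 0.19 and 0.11 on the control arrays and -0.15, -0.39 and -0.53 on the mutant arrays. The mean level of the list was 8.93 to 9.48 in the controls and 8.79 to 9.04 in the mutants. Cd79a, a B cell receptor signalling gene, was at 10.27 to 10.73 in the controls and at 10.02 to 10.53 in the mutants. Its difference of -0.19 ± 0.19 (SE) was the smallest of the 9. Blk, a kinase gene of the B lineage, had the largest, at -0.75 ± 0.20 (SE; adjusted p = 0.594 in limma). It was the only 1 of the 9 without overlap, against 9.99% of tested genes. Ms4a1, a marker of mature B cells, was under the level for testing on every array (3.92 to 4.23), as was Vpreb1. Ly6d, whose protein was selected against, was at 7.18, 8.14 and 8.25 in the controls and at 7.57, 7.30 and 7.0 in the mutants. All 7 tested markers of CLPs (Il7r, Flt3, Rag2, Dntt, Kit, Cd27 and Cd34) were above the level for testing on every array and had a lower mutant mean (median -0.20). These 7 lie in bins 7 to 10, where 71.7% to 86.0% of tested genes were lower. In bulk samples, fewer cells of a type and less RNA per cell cannot be told apart, and the part of the marker genes in the Ikzf1 and Ikzf3 values was not tested.

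Of 12 myeloid markers 9 had a higher mutant mean (median 0.16), and their mean level was 8.42 to 9.33 in the controls and 8.66 to 9.49 in the mutants, highest on control replicate 1 and mutant replicate 1. Mpo, the myeloperoxidase gene, was at 11.36 and 11.45 on those arrays and at 9.48 to 10.68 on the others. Of 9 tested T cell markers 6 were lower (median -0.02), and of 9 tested markers of natural killer and innate lymphoid cells 6 were lower (median -0.05). Of 9 listed markers of mature B and plasma cells, 5 (Ms4a1, Fcer2a, Cr2, Jchain and Prdm1) were too dim to be tested. The 4 tested, Cd22, Xbp1, Sdc1 and Irf4, were lower by the mean (median -0.29). These 4 lie in bins 7 to 9, where 71.7% to 83.2% of tested genes were lower. Relative to the control mean their median was -0.14, 0.14 and -0.010 on the control arrays and -0.027, -0.51 and -0.33 on the mutant arrays. Its order of arrays was that of Ikzf1 except that mutant replicate 1 and control replicate 1 changed places. Erythroid (4 of 5 tested higher, median 0.23), megakaryocyte (5 of 5 higher, 0.17) and stem cell markers (4 of 5 higher, 0.09) leaned the other way. Over all tested genes 57.5% were lower and 42.5% higher by the mean. The tested megakaryocyte markers lie in bins 1 to 5, where 27.9% to 52.0% of tested genes were lower. Myeloid markers lie in bins 6 to 10, where 62.8% to 86.0% were lower. The erythroid and stem cell markers are spread over bins 2 to 10. Plasmacytoid dendritic markers (5 of 7 lower, -0.15) and stromal and bone markers (4 of 6 lower, -0.061) completed the lists. Of the latter, Bglap, the osteocalcin gene, was at 5.04 to 5.23 in the controls and 5.12 to 5.50 in the mutants, and Sp7 and Lepr were too dim to be tested. The part of these cells in the members' values was not tested.

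The genes most like each member were those with the highest Pearson r across the 6 arrays, computed on the same arrays for every tested gene. With family members and predicted genes left out, r was above 0.9 for 443 genes with Ikzf1 and 363 with Ikzf3. It was above 0.9 for 134 with Ikzf2 and 102 with Ikzf5. Genes chosen in this way share the member's pattern over the arrays, so the direction of their differences follows from the choice. For Ikzf1 they were Tasor, a gene of the HUSH silencing complex (r = 0.997), Ttc21b, an intraflagellar transport gene (0.996), and Pgm2l1 (0.994). Tasor was at 7.88 ± 0.20 on the control and 7.37 ± 0.14 on the mutant arrays, and Ttc21b at 5.39 ± 0.08 and 5.09 ± 0.08 (SD, n = 3 each). Pgm2l1, a sugar phosphate metabolism gene, differed by -0.20 ± 0.11 (SE). For Ikzf3 they were the tetraspanin gene Cd81 (0.997), Brip1os (0.997) and Slamf7 (0.996), a receptor gene of lymphocytes. Cd81 was at 9.66, 9.96 and 9.96 in the controls and at 9.67, 9.50 and 9.63 in the mutants, so control replicate 1 lay just under mutant replicate 1. Slamf7 differed by -0.53 ± 0.18 (SE) and Brip1os by -0.43 ± 0.14.

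For Ikzf2 the genes most like it were Cpq (0.993), the nuclear pore gene Nup93 (0.990) and Il18rap (0.982), a subunit gene of the interleukin 18 receptor. Il18rap was at 6.46, 5.62 and 5.99 in the controls and at 6.20, 5.29 and 5.88 in the mutants, with a difference of -0.23 ± 0.28 (SE) that was 0.016 without mutant replicate 2. The differences of Cpq and Nup93 were -0.08 ± 0.12 and -0.07 ± 0.11, that of Nup93 turning to 0.08 after cyclic loess. For Ikzf5 they were Arhgap18 (0.994), the RNA demethylase gene Fto (0.986) and Egfl7 (0.984). Their differences, -0.0038 ± 0.13, 0.042 ± 0.18 and -0.0045 ± 0.14, took either sign with the setting. In the unweighted limma fit the adjusted p of these 12 genes was 0.594 or more. With array quality weights Tasor (adjusted p = 0.011), Ttc21b (0.023), Brip1os (0.014) and Slamf7 (0.017) passed in limma, and the others did not.

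NuRD is the chromatin complex most often found with Ikaros proteins. It couples nucleosome remodelling to histone deacetylation. Of its 14 tested genes, 10 had a lower and 4 a higher mutant mean, with a median of -0.11 against -0.04 over all tested genes, and 57.5% of all tested genes were lower. The 14 lie in bins 7 to 10, where 71.7% to 86.0% of tested genes were lower by the mean. The median turned to 0.05 after cyclic loess, with 5 of 14 lower, and to 0.01 with repeated quantile normalization. It was -0.21 without mutant replicate 1. The deacetylase gene Hdac1 had the largest difference, with means of 9.44 ± 0.07 on the control and 8.74 ± 0.45 on the mutant arrays (SD, n = 3 each; -0.70 ± 0.21, SE; unadjusted p = 0.012, adjusted p = 0.594 in limma), without overlap, and it was -0.51 after cyclic loess. Its partner gene Hdac2 differed by -0.24 ± 0.14, the remodeller gene Chd4 by -0.031 ± 0.12, and Mta2 by -0.27 ± 0.12. Mbd2, a methyl-CpG binding subunit gene, was higher without overlap, at 0.20 ± 0.11. Of the 14 genes, 2 (Hdac1 and Mta2) were lower without overlap, against 9.99% of tested genes, and 1 was higher, against 5.4%.

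Among other corepressors 8 of 8 tested genes had a lower mutant mean, at a median of -0.07, against 57.5% of all tested genes. These genes lie in bins 7 to 10, where 71.7% to 86.0% of tested genes were lower by the mean. After cyclic loess 7 of 8 were higher, at 0.06. The Sin3 complex genes Sap30, Sin3a and Arid4a, which had the lowest p of the list, differed by -0.66 ± 0.40, -0.13 ± 0.12 and -0.08 ± 0.11 (SE). Sap30 rested on mutant replicate 2, without which its difference was -0.12. The list's median was -0.15 without control replicate 1, -0.14 without mutant replicate 1 and -0.11 without mutant replicate 2. Ctbp1, the gene of a corepressor that binds Ikaros directly, differed by -0.06 ± 0.21, and Ctbp2 was too dim to be tested.

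Genes that regulate the activity or stability of Ikaros proteins had a lower mutant mean in 12 of 12 tested cases, at a median of -0.21, against 57.5% of all tested genes. None of the 12 passed in the unweighted limma fit. With array quality weights 5 of the 12 passed, beside 2960 of the 13308 tested genes. Of the 12, 2 were lower with an unadjusted p under 0.05, against 6.02% of tested genes. Without overlap 1 was lower, against 9.99% of tested genes. Of the 12, 9 lie in the brightest bins, 9 and 10, where 83.2% and 86.0% of tested genes were lower by the mean. After cyclic loess 9 of 12 were lower, at a median of -0.03. Protein phosphatase 1 removes, and casein kinase 2 adds, phosphates that weaken DNA binding by Ikaros. The phosphatase genes Ppp1ca (-0.62 ± 0.23, SE) and Ppp1cc (-0.50 ± 0.20) had unadjusted p of 0.029 and 0.039 and the same adjusted p of 0.594 in limma. The kinase genes Csnk2a1 and Csnk2a2 differed by -0.20 ± 0.12 and -0.075 ± 0.15. Crbn, whose protein directs Ikaros and Aiolos to degradation in the presence of thalidomide-like drugs, was at 6.69 ± 0.01 and 6.59 ± 0.30 (SD, n = 3 each). Without mutant replicate 2, 9 of 12 were lower by the mean and the list's median was -0.13.

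**Figure D5:**
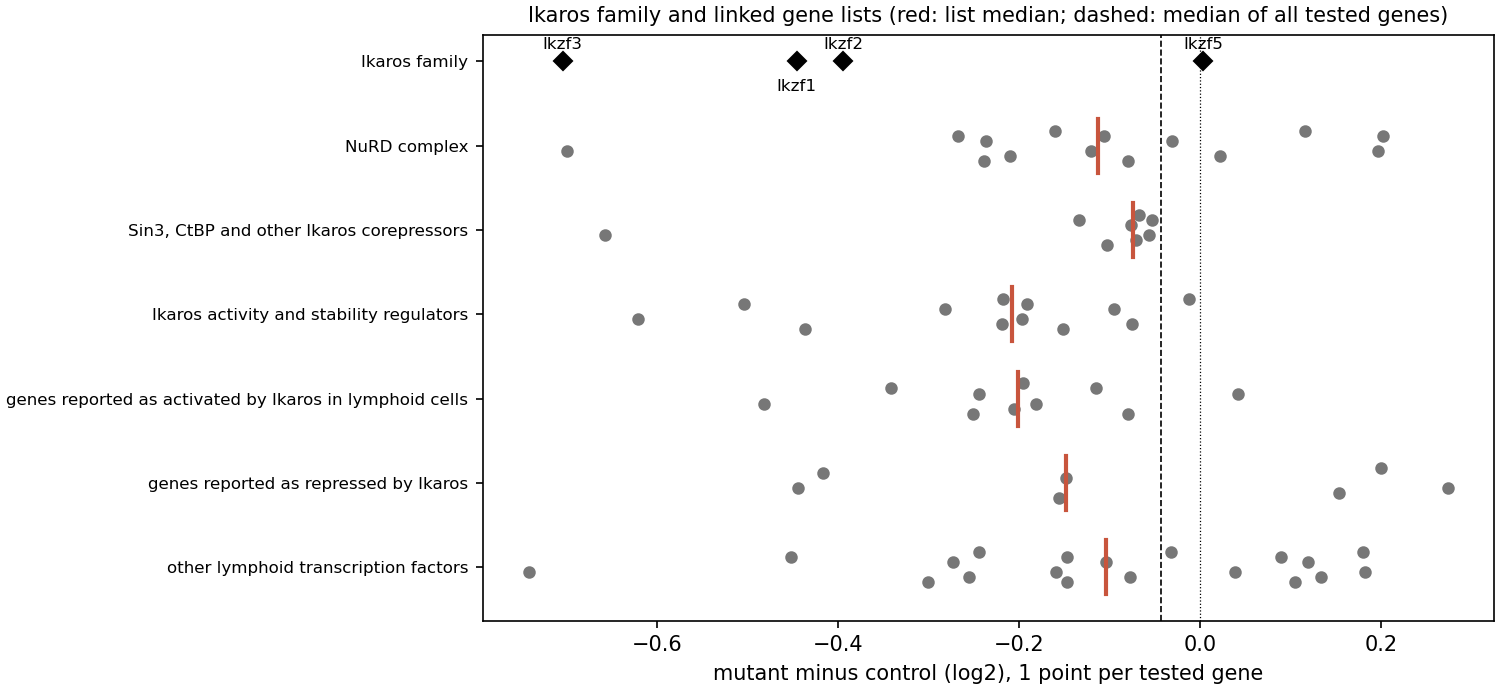
Mutant minus control difference (log2) of the 4 tested Ikaros family genes and of each tested gene of 6 linked lists, with list medians in red and the median of all tested genes dashed. Spib (-0.74), Ikzf3 (-0.70), Hdac1 (-0.70) and Sap30 (-0.66) are at the low end, and the list medians lie between -0.21 and -0.07.

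Genes reported as activated by Ikaros were next. Of 10 tested, 9 were lower by the mean, against 57.5% of all tested genes. Apart from Gfi1 in bin 4 (45.4% lower), they lie in bins 7 and 10, where 71.7% and 86.0% of tested genes were lower. The median of -0.20 shrank to -0.06 after cyclic loess, with 8 of 10 lower. In 5 of them the mutant values lay below all control values, against 9.99% of tested genes. Of these 5, Il7r, Rag2 and Dntt are also among the CLP markers above, and Il7r, Rag2, Dntt and Sox4 lie in the brightest bin, where 86.0% of tested genes were lower by the mean (median -0.21). Satb1, a chromatin organiser gene of lymphoid progenitors, was at 6.96 ± 0.05 on the control and 6.48 ± 0.32 on the mutant arrays (SD, n = 3 each), a difference of -0.48 ± 0.17 (SE; unadjusted p = 0.021, adjusted p = 0.594 in limma). The others without overlap were the interleukin 7 receptor gene Il7r (-0.34 ± 0.15), the recombinase gene Rag2 (-0.25 ± 0.15), Sox4 (-0.21 ± 0.11) and Dntt (-0.20 ± 0.12), the gene of the enzyme that adds nucleotides at antigen receptor joints. Ebf1, which starts the B cell programme, differed by 0.04 ± 0.12, and Flt3, a cytokine receptor gene, by -0.18 ± 0.20. Ccr9 was too dim to be tested.

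Genes reported as repressed by Ikaros lay on both sides of 0. Of 7 tested genes 4 had a lower and 3 a higher mutant mean, where 57.5% of all tested genes were lower. The median was -0.15, and it was 0.03 after cyclic loess, -0.07 without mutant replicate 1 and -0.09 without mutant replicate 3. Igll1, a surrogate light chain gene of the pre-B receptor, was at 11.04 ± 0.23 and 10.62 ± 0.24 (SD, n = 3 each; -0.42 ± 0.17, SE; unadjusted p = 0.041). Il2ra differed by -0.44 ± 0.28 and the cell cycle kinase gene Cdk6 by -0.16 ± 0.12. On the higher side were Notch3 (0.27 ± 0.14), the growth regulator gene Myc (0.20 ± 0.18) and the Notch target gene Hes1 (0.15 ± 0.11), the last without overlap between the groups, while Dtx1, another Notch target gene, differed by -0.15 ± 0.13.

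Other transcription factor genes of lymphoid progenitors were mixed. Of 19 tested, 12 had a lower and 7 a higher mutant mean (median -0.10, 0.02 after cyclic loess, -0.16 without mutant replicate 2 and -0.06 without mutant replicate 3). Over all tested genes 57.5% were lower. The ETS factor gene Fli1 resembled Ikzf1 in size, at 9.14 ± 0.10 and 8.69 ± 0.16 (SD, n = 3 each; -0.45 ± 0.13, SE; unadjusted p = 0.0084, adjusted p = 0.594 in limma), and like Ikzf1 it was smaller after cyclic loess (-0.27). Spib had the largest difference of the list with a large error (-0.74 ± 0.40). Myb (-0.16 ± 0.14), Runx1 (0.12 ± 0.16) and Bcl11a (0.13 ± 0.11), all needed in early lymphoid cells, did not pass in the unweighted fit. Nor did any other gene of the list. With array quality weights 7 of the 19 passed in limma, beside 2960 of the 13308 tested genes.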

How the data were processed

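Gene expression was measured on 6 Affymetrix arrays, 3 control and 3 mutant samples grouped by title. RNA was taken up in Trizol, amplified with NuGEN Ovation V2 and biotinylated, per the labels' protocols. The authors deposited log2 intensities per probe set; the submitters' processing notes name RMA, and no source used here gives its version or a genome build. Of 41345 probe sets, 23521 carried 1 gene symbol, and where a gene had several, the one with the highest mean stood for it. The dimmest 40% of genes were not tested, which left 13308. Groups were compared with limma 3.58.1 in R 4.3.3 (lmFit, eBayes, 2-sided, Benjamini-Hochberg over all tested genes, threshold 0.05), and this test was checked on simulated data. With 3 arrays per group, their number limits the precision. Promoter sequences came from RefSeq, and figures were drawn with matplotlib 3.10.9.

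The family, the gene lists and the alternatives were chosen with earlier results of these data known. The lists come from general knowledge and are not complete. Always named were the 5 members. From each list, the text names at least the genes with an unadjusted p under 0.05, or otherwise the 3 with the lowest p, and for each tested member the 3 genes with the highest r, predicted genes left out; other list genes are named for their known role or after their values were seen. The alternatives were other filters on dim genes, other uses of probe sets, other variance priors, array weights, other scalings, blocks for replicate number and Eif2s3y level, and leaving out each array. The fit within the arrays of high Eif2s3y was added after seeing the data.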

Additional observations from a re-analysis of the deposited data

How the results depend on the processing

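Ikzf1, Ikzf2 and Ikzf3 had a lower mutant mean in all 19 alternatives each (-0.54 to -0.26, -0.68 to -0.13 and -0.98 to -0.58). Other filters, uses of probe sets, variance priors and balanced blocks could not change these differences, each member having 1 probe set. For Ikzf1 and Ikzf3, whose groups do not overlap, leaving out arrays could not turn the sign. The number of alternatives is therefore not a count of separate checks. With array weights Ikzf1 (-0.46, adjusted p = 0.011) and Ikzf3 (-0.76, adjusted p = 0.011) passed in limma, as did 2960 genes (5087 at unadjusted p under 0.05), the weights running from 0.21 for mutant replicate 2 to 5.20 for mutant replicate 3; the adjusted p of both ran up to 0.886. List genes also passed with array weights: 3 of 14 (NuRD), 1 of 8 (other corepressors) and 5 of 12 (regulators). So did 4 of 10 (activated), 3 of 7 (repressed) and 7 of 19 (other factors). Ikzf5 turned to -0.027 with array weights and -0.058 with centring. Leaving out 1 array, the ranges were -0.53 to -0.39 for Ikzf1, -0.68 to -0.13 for Ikzf2, -0.95 to -0.58 for Ikzf3, -0.071 to 0.069 for Ikzf4 and -0.048 to 0.038 for Ikzf5, with 0 to 4 genes past the threshold, 4 of them without mutant replicate 1 and 1 without mutant replicate 2, and 343 to 2923 at unadjusted p under 0.05. The list medians then ran from -0.21 to -0.094 (NuRD), -0.15 to -0.068 (other corepressors), -0.31 to -0.13 (regulators), -0.26 to -0.16 (activated), -0.20 to -0.072 (repressed) and -0.16 to -0.063 (other factors). With repeated quantile normalization they were, in that order, 0.0058, 0.050, -0.065, -0.092, -0.0015 and 0.0088, and after cyclic loess 0.046, 0.058, -0.034, -0.063, 0.031 and 0.018. The corepressor median was -0.18 with array weights, and the repressed median -0.0083 with the mean of all probe sets and -0.21 with centring. Genes at unadjusted p under 0.05 numbered 1748 with no filter on dim genes and 487 within the arrays of high Eif2s3y. Of the other named genes, sign turned with repeated quantile normalization and cyclic loess in Sin3a (0.018 and 0.043), Arid4a (0.080 and 0.084), Nup93 (0.077 and 0.085), Arhgap18 (0.098 and 0.10) and Egfl7 (0.055 and 0.058), within the arrays of high Eif2s3y in Arhgap18 (0.0072) and Egfl7 (0.0098), and in Fto with array weights (-0.065) and centring (-0.021). Leaving out 1 array, it turned in Fto (-0.17 to 0.18), Il18rap (-0.44 to 0.016), Arhgap18 (-0.10 to 0.060) and Egfl7 (-0.14 to 0.10). The cause of these changes was not tested. Over tested genes, deviations from the group means correlated at 0.13, 0.20 and -0.13 between arrays of equal replicate number. Those of unequal number correlated at -0.23 to 0.20, and this does not settle whether replicate numbers pair the arrays. For Ikzf2 the replicates ranked alike in both groups, and its SE was 0.14 with the replicate block against 0.32 without. With the replicate block 0 genes passed, 1062 had an unadjusted p under 0.05, and Ikzf2 had an unadjusted p of 0.022 and an adjusted p of 0.597 in limma; no call changed. Detection calls were not used here, so the levels of Ikzf4 cannot be told from background.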
